A study of Mus musculus with 2 samples.

Results

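The imprinted growth genes examined here are 10 genes, H19, Igf2, Cdkn1c, Dlk1, Meg3, Peg3, Mest, Grb10, Plagl1 and Igf2r, chosen by name among the 14704 annotated genes with at least 1 read. For each gene all rows under its symbol that the authors class as a known gene were taken, whatever the class of the transcript model, and exons were read from the matching annotation. Both libraries were long-read RNA-seq of total RNA from gastrocnemius, the large calf muscle, of male B6CASTF1/J mice (a cross of C57BL/6 and CAST strains) at 14 days of age, each made from 2 µg of RNA. They form 1 group of biological replicates 1 and 2 with no second condition, and the labels trace both to the same donor entry and mention 3 males per biosample, without saying whether animals were pooled, so the spread between the libraries may be partly technical.

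In an imprinted gene the copy inherited from one parent is active and the other is silenced, under the control of a region whose DNA methylation is set in the germ line of one parent. In the mouse, H19, Cdkn1c, Meg3, Igf2r and, outside neurons, Grb10 are known to be read from the maternal copy, and several of them restrain growth. Igf2, Dlk1, Mest, Peg3 and Plagl1 are known to be read from the paternal copy, and several of them promote growth. Many members are strong in the embryo and are lowered after birth. The deposited files give no allele, so the parental origin of the reads was not analysed here and the words maternal and paternal below are background.

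Replicate 1 held 1094607 reads and replicate 2 held 626289 reads after removal of the ERCC spike-in RNAs, so a count of 0 allows up to 2.74 and 4.79 CPM, counts per 1000000 of these reads (3 reads in each library). All levels are CPM, and intervals cover counting error only, because the tables record no molecular identifiers. The 5 fibre markers (Acta1, Ckm, Myh4, Tnnc2 and Mylpf) summed to 206993 CPM in replicate 1 and 223293 CPM in replicate 2 and all had reads in both. The 5 fibroblast and matrix markers summed to 6942 and 2743 CPM, and the 4 satellite cell markers to 2.74 and 12.8 CPM, with Calcr at 0 in both libraries.

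The members spanned about 3 orders of magnitude. The noncoding RNA H19 had 2140 CPM in replicate 1 and 1525 CPM in replicate 2, a mean of 1833 ± 435 (SD, n = 2), which placed it 37th and 58th among the detected genes. Cdkn1c, the cyclin-dependent kinase inhibitor p57, had 997 and 650 CPM (823 ± 245) and ranked 79th and 155th. Both stood above every other member in both libraries.

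A middle tier of 4 genes lay near 100 CPM. Igf2, the fetal growth factor, had 109 and 99.0 CPM (mean 104 ± 6.87, SD), and Dlk1, a Delta-like transmembrane protein, had 119 and 73.5 CPM (96.1 ± 32.0). Mest, a predicted hydrolase, had 89.5 and 94.2 CPM (91.9 ± 3.31), and Meg3, a noncoding RNA next to Dlk1, had 109 and 51.1 CPM (79.9 ± 40.7). The ranges of neighbours in this tier overlapped, so their order was not fixed by these libraries. The tier rests on counting all classes of model: on complete models alone Igf2 had a mean of 10.5 CPM and Meg3 of 34.8, beside 88.0 for Dlk1 and 80.0 for Mest. Complete names a set of model classes, given below, and does not mean full length. Models that span both coding ends had 1 read in each library for Igf2, beside 118 and 40 for Dlk1 and 86 and 51 for Mest.

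The low tier held the receptor and regulators. Igf2r, the mannose 6-phosphate receptor that takes IGF2 out of circulation, had 21 and 22.4 CPM (21.7 ± 0.949), and Grb10, an adapter that damps insulin and IGF receptors, had 18.3 and 11.2 CPM (14.7 ± 5.02). Peg3, a zinc-finger protein, had 5.48 and 19.2 CPM (12.3 ± 9.67) from 6 and 12 reads. Plagl1, a zinc-finger transcription factor known to act on other imprinted genes, had 3 reads (2.74 CPM) in replicate 1 and 0 reads in replicate 2, at the limit that a count of 0 allows. At these depths the counting intervals of Igf2r (13.3 to 31.5 CPM in replicate 1) and Grb10 (11.2 to 28.2 CPM) overlapped, as did those of Grb10 and Peg3.

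**Figure D1:**
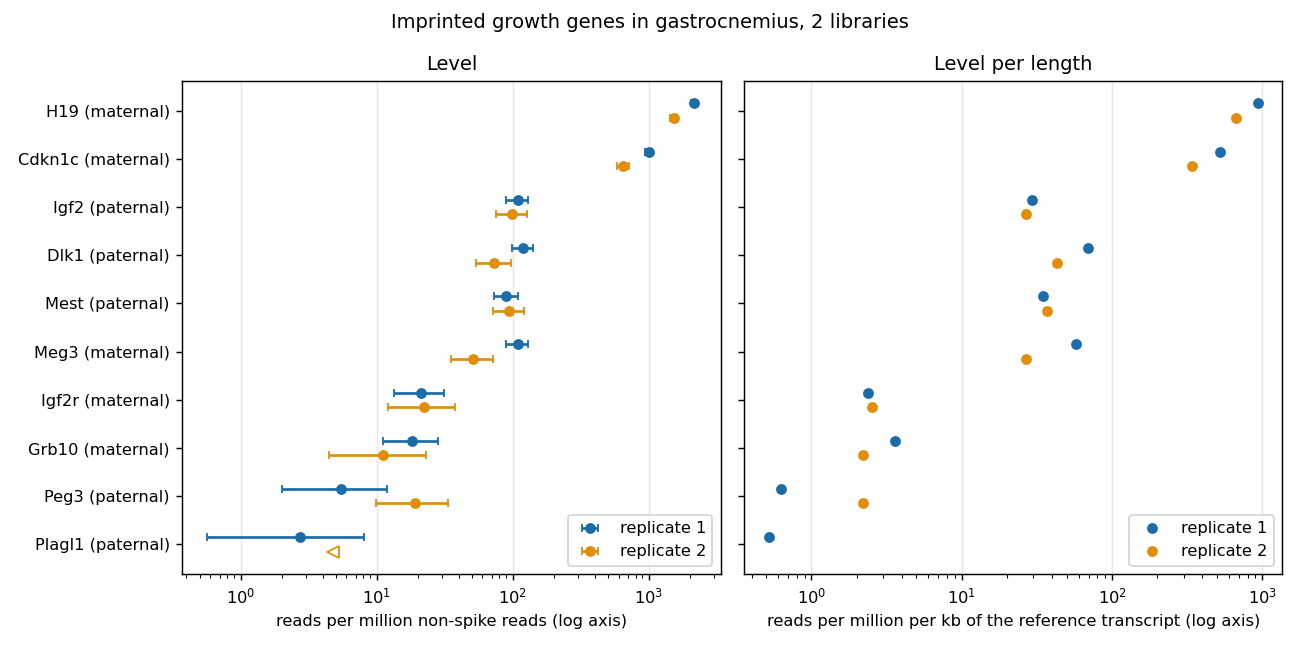
Level of each member in replicate 1 (blue) and replicate 2 (orange), as CPM with exact 95% Poisson bars (left) and as CPM per kb of the reference transcript without bars (right), both on log axes. The parental copy in brackets is the one known to be active in the mouse, the open arrow marks the limit of 4.79 CPM that 0 reads allow, and H19 and Cdkn1c stand apart at 650 CPM and above.

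Levels were also set per kb of a reference transcript of each gene. A long read is counted once whatever the length of its transcript, so the per-kb scale is no correction and CPM remain the main levels. On that scale H19 (936 and 667 CPM per kb) and Cdkn1c (524 and 342) still led, and Dlk1 (69.7 and 43.1), Meg3 (57.3 and 26.9) and Mest (35.0 and 36.8) came before Igf2 (29.3 and 26.7). The range of Meg3 overlapped those of Dlk1, Mest and Igf2, while Mest was above Igf2 in both libraries. Grb10 (3.61 and 2.21), Igf2r (2.36 and 2.52) and Peg3 (0.630 and 2.20) were lower, and Plagl1 (0.521 and 0) was lowest. The place of Meg3 depended on the transcript chosen, since the longest Meg3 transcript has 14548 bases and per kb of it the level was 7.47 and 3.51 CPM.

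By reads, H19 alone supplied 59.3% of the members' 3952 reads in replicate 1 and 59.9% of 1594 reads in replicate 2. The 5 genes known to be maternally expressed supplied 91.0% and 88.8%, and the 5 known to be paternally expressed supplied 9.01% and 11.2%. Without H19, the other 4 maternally expressed genes had 1145 and 735 CPM, still above the paternally expressed 5 at 325 and 286 CPM. These sums rest mainly on Cdkn1c.

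Each gene's reads were set against the rest of its library in a two-sided Fisher's exact test between the libraries. P-values were adjusted by Benjamini-Hochberg over the 7955 genes that had 10 or more reads in all. This compares 2 libraries and not conditions. Of the 9 members tested, 4 differed and all 4 were higher in replicate 1, beside 13.5% of all genes tested in either direction with 6.89% higher in replicate 1 and 6.56% higher in replicate 2. H19 was 1.40 times as high in replicate 1 as in replicate 2 (adjusted p = 1.23e-17, Fisher's exact test), Cdkn1c 1.53 times (adjusted p = 1.84e-12), Dlk1 1.62 times (adjusted p = 0.0384) and Meg3 2.13 times (adjusted p = 0.00102). Igf2, Mest, Grb10 and Igf2r gave ratios of 1.10, 0.95, 1.64 and 0.940 that did not pass, Peg3 gave 0.286 (adjusted p = 0.0775), and Plagl1 had too few reads to be tested. The median log2 ratio of replicate 2 over replicate 1 was -0.49 over the 9 members and -0.24 over all genes tested.

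The calls of H19 and Cdkn1c held in all 6 settings tried, whereas Dlk1 was called in 2 of 6 and Meg3 in 4 of 6. With the genes of similar length, in 10 length groups, in place of the whole library, Dlk1 had an adjusted p of 0.198 and Meg3 of 0.0909, while Peg3 passed at 0.0374, higher in replicate 2 (Fisher's exact test). The fibroblast and matrix markers moved the same way: all 5 of 5 were lower in replicate 2, 3 of them called, with Col1a1 at 3768 and 920 CPM, and none at 0. Endothelial markers (339 and 228 CPM, Cldn5 called) and smooth muscle and pericyte markers (480 and 367, Acta2 called) were also lower in replicate 2 in sum. Schwann (300.6 and 536 CPM), erythroid (621 and 1138) and adipocyte markers (116 and 246) were higher in replicate 2 in sum. Length moved too: the median log2 ratio of replicate 2 over replicate 1 was 0.60 in the group of shortest transcripts and -0.42 in that of the longest. The part of these cell types in the differences was not tested, and in bulk tissue fewer cells of a type and less RNA per cell cannot be told apart.

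The deposited tables sort models into 5 classes. Annotated models match a GENCODE transcript in every intron, 2 unannotated spliced classes are named for known splice sites combined anew and for a new site, partial models are named as matching only a stretch of a transcript, and genomic models overlap a gene without its splicing. The classes were used as deposited, and some models of Meg3 and Cdkn1c classed as partial or as new combinations hold splice sites that are in no M21 transcript of the gene. The first 3 are called complete here, whether or not a model spans the coding sequence. Over all members 89.7% of reads in replicate 1 and 83.7% in replicate 2 were on complete models, beside 87.5% and 83.8% over all annotated genes, so the sum of the members was close to the background of each library. The single genes were far apart.

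H19, Dlk1 and Mest were read mainly as annotated transcripts, with 92.4% and 85.8% of H19 reads, 90.8% and 84.8% of Dlk1 reads and 86.7% and 84.7% of Mest reads in that class. Cdkn1c was complete in 97.8% and 97.0% of reads but annotated in only 35.6% and 39.1%. Igf2, Igf2r, Grb10 and Peg3 were mostly partial or genomic: Igf2 had 85.7% and 93.5% of its reads on partial models, Igf2r 65.2% and 92.9%, and Grb10 had 75.0% and 71.4% on genomic models. All 18 reads of Peg3 were genomic. Meg3 was mixed, with 47.9% and 34.4% of reads complete.

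**Figure D2:**
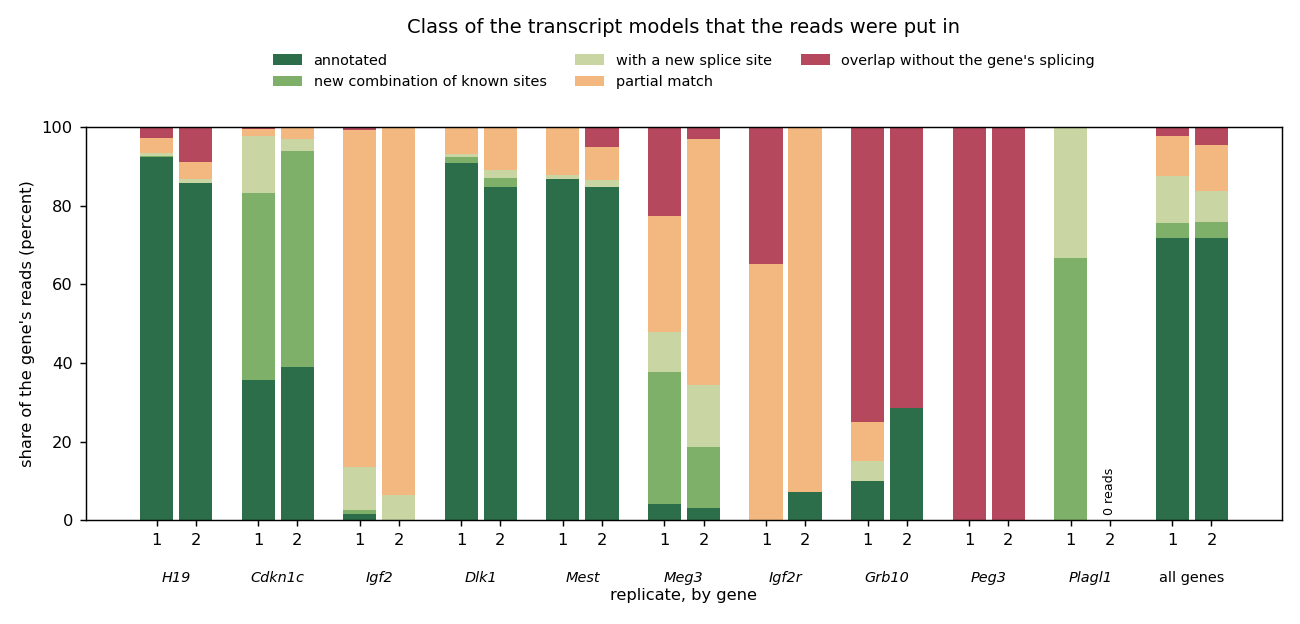
Share of each gene's reads in the 5 model classes for replicates 1 and 2, with all annotated genes at the right as a measure of the libraries. H19, Dlk1 and Mest are led by the annotated class, Cdkn1c by new combinations of known sites (47.7% and 54.8%), Igf2 and Igf2r by partial models, and Grb10 and Peg3 by genomic ones.

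The start, end and length of a model are those of the model, not of each read. All 19 annotated models of the members in replicate 1 and all 17 in replicate 2 carry exactly the exons of GENCODE M21, ends included, so a start or end named below tells which model the reads were put in.

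H19 is a spliced noncoding RNA that shares a control region with Igf2, and its first exon holds the hairpin of miR-675, a microRNA studied in muscle differentiation. H19 (ENSMUSG00000000031.16) lies on the minus strand of chromosome 7, from 142575529 to 142578143 on mm10. The 5-exon model H19-202 of 2286 bases took 2096 of 2191 complete reads in replicate 1 (95.7%) and 798 of 829 in replicate 2 (96.3%). H19-205 followed with 51 and 15 reads, and H19-203, a 2-exon model, with 18 and 6. The introns of H19-205 differ from those of H19-202 only at the start of exon 2, which lies a few bases further in. The start of H19-205 within exon 1 is that of the annotated model and does not show where these reads began. Of the 35 chains of introns seen on complete reads of H19, 5 were found in both libraries, a share that was not computed over all genes. Models with a single read were 24 of 33 for H19 in replicate 1 and 11 of 18 in replicate 2. Over all annotated genes they were 40511 of 67968 and 24605 of 42482.

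The miR-675 hairpin (chromosome 7, 142577064 to 142577147, minus strand) lay whole inside an exon of the model in 2163 of 2343 H19 reads in replicate 1 (92.3%, exact Clopper-Pearson 91.2 to 93.4%) and 821 of 955 in replicate 2 (86.0%, 83.6 to 88.1%). Where a single read begins inside the first exon cannot be seen in these files, so this is a share of models. The mature microRNAs were not measured here and are shown, with the seed (bases 2 to 8) in capitals, because H19 is their source; the sequences are RefSeq's on GRCm38.p6.
mmu-miR-675-5p: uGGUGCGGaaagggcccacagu
mmu-miR-675-3p: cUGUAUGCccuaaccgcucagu

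Reads without an intron made up 2.86% of H19 reads in replicate 1 and 8.90% in replicate 2, and 65 and 77 of them were on models of 106 and 104 bases at the 3′ end of the gene. The share was higher in replicate 2, with intervals that did not overlap (2.22 to 3.62% and 7.17 to 10.9%). Over all genes the genomic class was also larger in replicate 2, at 4.69% beside 2.34% of reads.

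Igf2 encodes the growth factor whose loss makes small pups, and its transcripts share coding exons joined to alternative first exons. Igf2 (ENSMUSG00000048583.16) lies on the minus strand of chromosome 7, from 142650766 to 142666816. Of its 119 reads in replicate 1 and 62 reads in replicate 2, 102 and 58 were on 1 single-exon model of 856 bases, from 142650769 to 142651624. That model lies wholly in the 3′ untranslated region, its first base 2195 bases past the last coding base at 142653819. Models that touch any coding base had 4 and 2 reads, and those that span both ends of the coding sequence had 1 read in each library, 0.840% (0.0213 to 4.59%) and 1.61% (0.0408 to 8.66%).

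The rest of the Igf2 reads were on spliced models. The leading complete chain had 6 of 16 complete reads in replicate 1 and 1 of 4 in replicate 2 and ran, with 1 intron, from 142650766 to 142652447, again past the coding end. The next 2 chains had 2 and 1 reads and 1 and 1 reads, each with 1 intron. Of the 4 Igf2 starts in the RefSeq promoter table, 2 had a model within 100 bases, with 1 read each in replicate 1, and none had a read in replicate 2. The Igf2 level given above is thus mainly a count of reads put in 3′ models. Gm49394, a gene annotated over Igf2 on the same strand, had 3 reads in each library, and reads of the pair could be split between them. The miR-483 hairpin in an Igf2 intron was spanned by 2 and 1 reads and was in no exon.

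Igf2r, the clearance receptor, was seen almost only from its 3′ end. The gene (ENSMUSG00000023830.14, chromosome 17, 12682406 to 12769664, minus strand) has a reference transcript of 48 exons and 8887 bases. Of 23 and 14 reads, all ended at the annotated 3′ end, and mean model length was 34.5% and 30.6% of the reference. The longest were a 37-exon model in replicate 1 and, in replicate 2, 1 read on the complete 48-exon Igf2r-201. The 8 single-exon reads of replicate 1 were classed genomic (1171 bases) and the 10 of replicate 2 partial (1721 bases), so the class of the 3′ reads differed between the files.

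Airn, the noncoding RNA that silences the paternal Igf2r in the mouse, runs on the other strand across the Igf2r promoter. It had 6 and 7 reads, of which 5 and 2 were on models that overlap the Igf2r span. Airn had 5.48 and 11.2 CPM, a difference that was not detectable at this depth (adjusted p = 0.543, Fisher's exact test).

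Grb10 (ENSMUSG00000020176.17, chromosome 11, 11930508 to 12038683, minus strand) had 20 reads in replicate 1 and 7 in replicate 2. Of these 15 and 5 were single-exon genomic reads in the last exon, on models that begin 1459 and 2877 bases past the coding end. The spliced reads, 5 and 2, all began with the first exon of Grb10-201 (5 of 5, exact lower bound 47.8%, and 2 of 2, lower bound 15.8%). The 17-exon Grb10-201 itself had 2 reads in each library, and 3 and 2 reads were on models that span the whole coding sequence. No model began within 100 bases of the downstream RefSeq start at 12027971, but among the 5 reads at a start in replicate 1 a count of 0 of them still allows up to 60%, and the 2 reads of replicate 2 set no limit. In the mouse, maternal expression outside neurons is known from the upstream start and paternal expression in neurons from downstream ones.

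The upstream Grb10 promoter, 300 bases around the start at 12037420, holds 45 CG pairs, more than 98.1% of the 32851 promoters in the RefSeq table. The downstream one holds 9, more than 54.2%. Over the table the median was 7.

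Cdkn1c encodes p57, which binds cyclin-dependent kinases and stops cell division, and its loss in the mouse is lethal around birth. Cdkn1c (ENSMUSG00000037664.13) lies on the minus strand of chromosome 7, from 143458339 to 143461050. Its reads were complete yet divided among many forms: 37 chains of introns were seen on complete reads and 21 of them in both libraries. That share was not computed over all genes. Models with a single read were 12 of 40 in replicate 1 and 6 of 26 in replicate 2. Models spanned both coding ends in 97.6% of reads in replicate 1 (96.5 to 98.4%) and 95.1% in replicate 2 (92.5 to 97.0%).

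The forms came from choices at both ends of exon 2. Its first base was at 143460678 (the middle form, as in Cdkn1c-201) in 626 of 1047 reads in replicate 1 and 229 of 386 in replicate 2, 59.8% and 59.3%. It was 3 bases further in, at 143460675, in 20.0% and 22.8% of reads, and 38 bases further out, at 143460716 as in Cdkn1c-202, in 20.2% and 17.9%. For each form the counting intervals of both libraries overlapped.

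The 3 starts of exon 2 lie around and between 2 annotated start codons: the long one before both, the middle and short ones between them. The sequence below runs from the coding start of Cdkn1c-202 at 143460707 to the one of Cdkn1c-201 at 143460668 (mm10, chr7:143460666-143460707, minus strand, from the GENCODE M21 transcript), with both start codons and the doubled acceptor CAGCAG in capitals. The start codons are 39 bases apart and in 1 frame. Only the long form holds the first of them, while the middle form begins after the first CAG and the short form after the second.
Cdkn1c start of exon 2: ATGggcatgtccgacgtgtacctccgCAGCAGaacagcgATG

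At the other end, exon 2 stopped at 143459795 in 54.3% of 1079 reads in replicate 1 and 57.2% of 404 in replicate 2, and ran 36 bases further, to 143459759, in 45.6% (42.6 to 48.6%) and 42.8% (37.9 to 47.8%). The longer end is annotated only in the short model Cdkn1c-205, where the added bases are coding, and 36 is a multiple of 3. They are shown after the last 12 bases of the shorter exon (chr7:143459759-143459806, minus strand), with the GT that follows the shorter exon in capitals.
Cdkn1c end of exon 2: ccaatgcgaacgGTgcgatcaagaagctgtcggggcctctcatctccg

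Long reads join both choices on 1 molecule. All 6 pairs of start and end of exon 2 occurred, and the 6 chains that carry them with no other change were the only ones with at least 5% of complete reads in both libraries. Together they held 83.4% and 83.3% of complete reads. Only 2 of them are annotated: Cdkn1c-201 (middle start, shorter end) with 283 and 113 reads, 26.5% and 28.6%, and Cdkn1c-202 (long start, shorter end) with 87 and 37, 8.15% and 9.37%. The other 4 held 48.7% and 45.3%, led by the middle start with the longer end at 246 and 78 reads (23.1% and 19.7%). The short start had 103 and 38 reads with the shorter end and 76 and 37 with the longer one, and the long start with the longer end had 95 and 26.

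The longer end was found in 52.1% and 44.9% of reads with the long start, 45% and 39.7% with the middle start and 41.1% and 47.7% with the short start. The order of the 3 shares was not the same in the libraries and their intervals overlapped. The chain of the short start with the shorter end was classed as holding a new site in one file and as a new combination in the other, so the 2 unannotated classes are best read together for this gene.

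A smaller share of Cdkn1c reads lacked a stretch inside exon 2, in a repeat-rich part of the coding sequence. An 84-base stretch was missing in 6.69% of 1046 reads in replicate 1 and 6.22% of 386 in replicate 2, and a 59-base stretch in 5.35% and 5.70%. Nothing was missing in 87.5% and 87.8%. The 84-base stretch is a multiple of 3 and the 59-base one is not. Each stretch is shown with 12 bases on either side, its first and last pair of bases in capitals (chr7:143460015-143460122 and chr7:143460003-143460085, minus strand, from Cdkn1c-201). Both begin with GT and end with AG, like the ends of introns, and both lie among repeats of similar words such as gaggag and gagcag. The 72-base stretch that Cdkn1c-203 lacks was missing in 3 and 1 reads.
Cdkn1c 84-base stretch: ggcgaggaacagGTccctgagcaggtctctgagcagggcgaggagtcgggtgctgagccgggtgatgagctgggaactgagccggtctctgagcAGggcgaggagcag
Cdkn1c 59-base stretch: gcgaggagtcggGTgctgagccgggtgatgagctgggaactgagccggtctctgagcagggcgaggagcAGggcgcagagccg

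**Figure D3:**
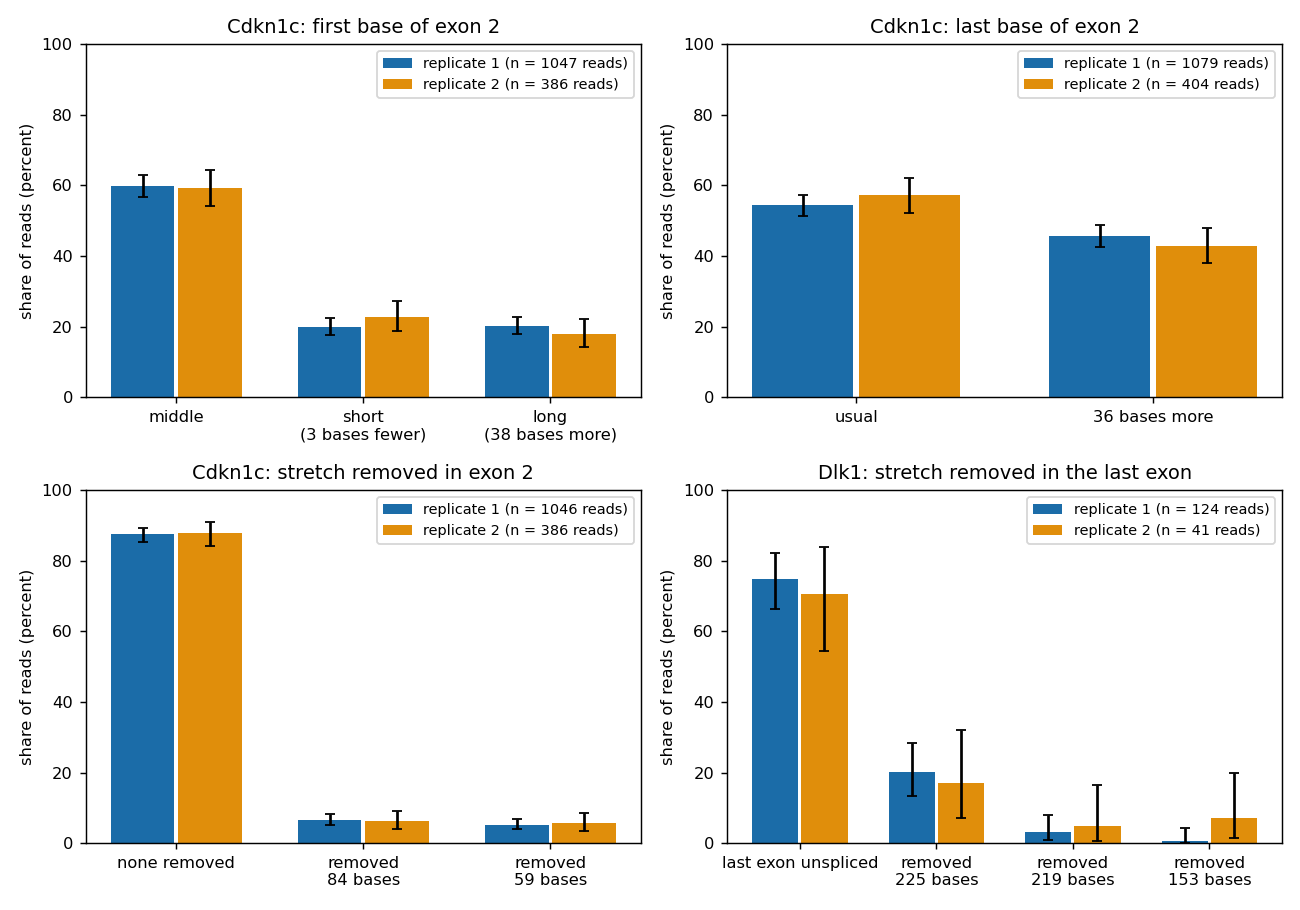
Share of reads with each splice choice in Cdkn1c and Dlk1, for replicate 1 (blue) and replicate 2 (orange), with exact 95% Clopper-Pearson bars and the number of informative reads in each legend. The Cdkn1c shares differ by at most a few points between the libraries, and the Dlk1 bars are wide because 124 and 41 reads are informative.

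Dlk1 is a transmembrane protein with epidermal growth factor repeats that is known to be made in fetal and regenerating muscle, and its overexpression enlarges muscle in callipyge sheep. Dlk1 (ENSMUSG00000040856.17) lies on the plus strand of chromosome 12, from 109452823 to 109463336. Of its 130 reads in replicate 1 and 46 in replicate 2, 90.8% and 87.0% were on models that span the coding sequence. Dlk1-205, with an unspliced last exon, led with 85 of 121 complete reads (70.2%) and 26 of 41 (63.4%), and Dlk1-208 followed with 24 (19.8%) and 6 (14.6%). Dlk1-203 had 3 and 2 complete reads and Dlk1-206 had 1 and 3, so that Dlk1-206 passed 5% in replicate 2 only.

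These models differ by a stretch of coding sequence removed from the last exon. The last exon was unspliced in 75.0% of 124 reads in replicate 1 (66.4 to 82.3%) and 70.7% of 41 in replicate 2 (54.5 to 83.9%). A stretch of 225 bases was removed in 20.2% and 17.1%, one of 219 bases in 3.23% and 4.88%, one of 153 bases in 0.806% and 7.32%, and one of 150 bases in 1 read. All 4 lengths are multiples of 3, all share the same first base, 109459893, and all begin with GT and end with AG. In the mouse the unspliced form is known to keep the site beside the membrane where the outer part is cut off and shed, and several shorter forms to stay bound to the membrane. The stretch is shown with 15 bases on each side (chr12:109459878-109460132, plus strand, from Dlk1-205), with the shared GT and the 4 closing AG pairs in capitals.
Dlk1 last exon: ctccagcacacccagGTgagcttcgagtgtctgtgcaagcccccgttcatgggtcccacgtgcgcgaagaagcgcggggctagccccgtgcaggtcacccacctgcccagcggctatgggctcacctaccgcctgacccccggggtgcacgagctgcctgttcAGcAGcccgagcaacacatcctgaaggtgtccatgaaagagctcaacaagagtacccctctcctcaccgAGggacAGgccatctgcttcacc

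The unspliced last exon was thus the main form of Dlk1 in both libraries. The exon upstream of the usual first one, as in Dlk1-201, was used in 3 of 124 and 2 of 41 spliced reads (2.42% and 4.88%). Models ending at 109463336, the distal 3′ end, had 27 and 10 reads (20.8% and 21.7%), but these are the annotated ends of Dlk1-201, Dlk1-206 and Dlk1-208.

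Meg3 is a noncoding RNA read from the maternal copy of the same cluster, in the opposite parental sense to Dlk1. Meg3 (ENSMUSG00000021268.17) lies on the plus strand of chromosome 12, from 109541001 to 109571726. It was the most broken up of the well read members: 37 models held 119 reads in replicate 1 and 15 models held 32 reads in replicate 2. Only 5 and 1 reads were on annotated models, 4 and 1 of these on the 3-exon Meg3-205.

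Of its spliced reads, 56 of 92 and 11 of 20 began with the annotated first exon (60.9% and 55.0%), and 27 and 4 reads were on models that start at 109544498 inside the gene. The RefSeq promoter upstream of the first exon holds 1 TATAAA on the gene's own strand, 25 bases before the RefSeq start, and an overlapping one on the other strand. TATAAA was searched on both strands of all 32851 promoters of 300 bases and found in 13.6%. It is shown with the bases up to the start (GRCm38.p6, chr12:109540901-109540995, plus strand) because this start had the most spliced Meg3 reads. A match describes the letters only.
Meg3 promoter: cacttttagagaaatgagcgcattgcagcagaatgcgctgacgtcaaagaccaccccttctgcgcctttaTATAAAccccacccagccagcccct

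Meg3 reads often held an exon that is in none of the 11 annotated Meg3 transcripts. It runs over 184 bases from 109568411 to 109568594, between the last 2 exons of Meg3-207, and none of its edges is an exon edge in the annotation. It was present in 44 of 80 informative reads in replicate 1 (55.0%) and 15 of 18 in replicate 2 (83.3%), with intervals that overlapped (43.5 to 66.2% and 58.6 to 96.4%). The stretch itself lies inside the very long last exon of Meg3-209. No complete chain of Meg3 led clearly. The 4 with most reads by mean share had 6, 6, 8 and 7 of 57 complete reads in replicate 1 and 3, 2, 1 and 1 of 11 in replicate 2.

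Other choices of Meg3 were mixed too. Exon 2 ended at the shorter site in 34 of 56 and 6 of 11 reads (60.7% and 54.5%) and 44 bases further in 21 and 5. Exon 4 was skipped in 64 of 77 and 11 of 13 reads (83.1% and 84.6%). The miR-770 hairpin lay in an intron of 84 and 18 reads and in no exon. Single-exon reads at the 3′ end were 22 reads of a genomic model in replicate 1 and 11 of a partial model in replicate 2, so again the class differed between the files.

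Mest encodes a protein of the hydrolase fold, and its intron holds miR-335. Mest (ENSMUSG00000051855.15) lies on the plus strand of chromosome 6, from 30723547 to 30748465. Almost all of its complete reads were of 1 form: the 12-exon Mest-211 had 85 of 86 in replicate 1 and 50 of 51 in replicate 2. The usual first exon, which ends at the first splice of Mest-211, opened 86 of 93 spliced reads (92.5%) and 51 of 56 (91.1%), and the other 7 and 5 started further in.

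Annotated starts further upstream were not seen. A total of 86 and 51 reads were on models starting within 100 bases of the RefSeq start at 30738050, and 0 at the one at 30733506, which allows up to 3.49% and 5.88% of the reads at a start there. The 250 bases before both starts are shown (GRCm38.p6, chr6:30737800-30738049 and chr6:30733256-30733505, plus strand), with each CG, the pair that DNA methylation marks, in capitals. In the full 300-base windows the promoter at 30738050 holds 17 CG pairs, more than 68.6% of all promoters, and the one at 30733506 holds 8, more than 51.4%.
Mest promoter at 30738050: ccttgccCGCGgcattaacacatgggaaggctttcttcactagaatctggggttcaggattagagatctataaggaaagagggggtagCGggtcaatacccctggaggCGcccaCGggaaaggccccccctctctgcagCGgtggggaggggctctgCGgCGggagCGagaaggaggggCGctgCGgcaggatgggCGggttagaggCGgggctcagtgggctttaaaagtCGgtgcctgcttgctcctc
Mest promoter at 30733506: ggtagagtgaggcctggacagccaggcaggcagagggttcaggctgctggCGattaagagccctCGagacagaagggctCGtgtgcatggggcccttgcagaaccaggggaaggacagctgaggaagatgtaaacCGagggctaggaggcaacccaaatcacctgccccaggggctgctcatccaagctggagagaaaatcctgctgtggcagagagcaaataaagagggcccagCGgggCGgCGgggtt

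The miR-335 hairpin (chromosome 6, 30741299 to 30741396) lay in an intron of 86 and 51 Mest reads, so these reads are of RNA from which it had been spliced out. The mature microRNAs, not measured here, are shown with the seed in capitals because their host was read as 1 form. They do not share a seed with the H19 microRNAs above.
mmu-miR-335-5p: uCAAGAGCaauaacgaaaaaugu
mmu-miR-335-3p: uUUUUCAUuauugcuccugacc

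Peg3 and Plagl1, the zinc-finger members, were at the edge of detection. Peg3 (ENSMUSG00000002265.16, chromosome 7, 6703892 to 6730431, minus strand) had 6 and 12 reads, every one on a single-exon model of 325 or 324 bases at the 3′ end, which begins 3293 and 3294 bases past the coding end. No spliced Peg3 read was seen. Plagl1 (ENSMUSG00000019817.18, chromosome 10, 13060504 to 13131694, plus strand) had 3 reads on 3 different unannotated chains of 6, 7 and 8 exons. Of these reads, 2 were on models that span the coding sequence. All 3 models began within 100 bases of the RefSeq start at 13090832, whose promoter holds 26 CG pairs, more than 83.1% of all promoters.

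**Figure D4:**
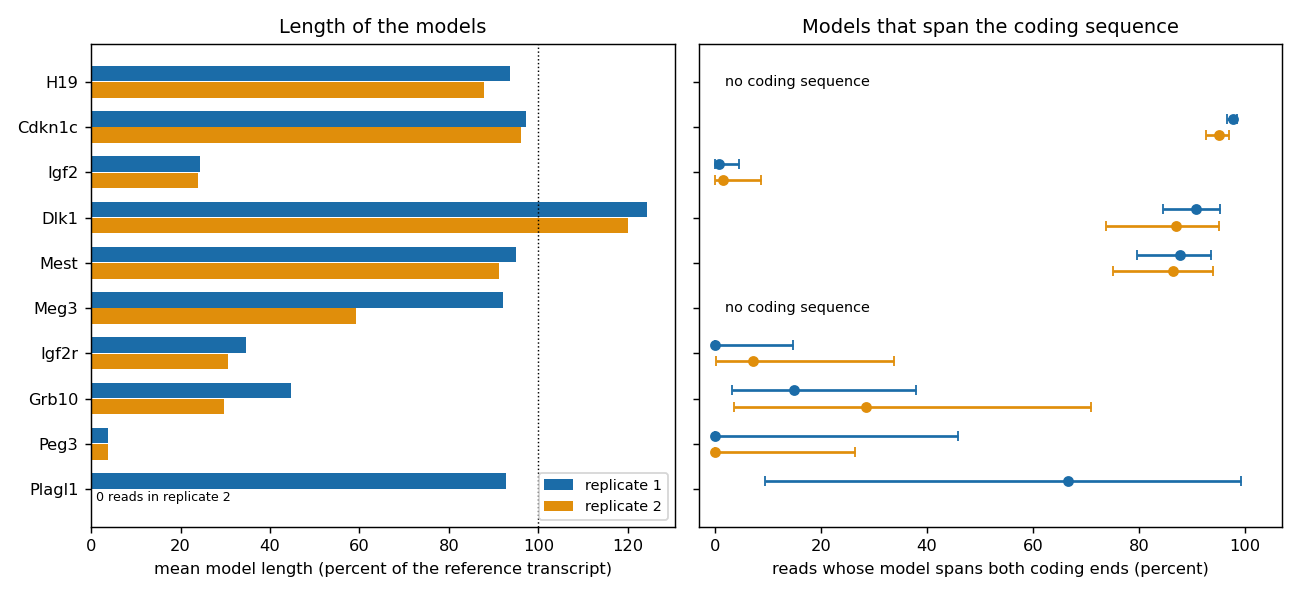
Mean length of the models as a percent of each gene's reference transcript (left, dotted line at 100%) and share of reads whose model spans both ends of the coding sequence with exact 95% intervals (right), for replicate 1 (blue) and replicate 2 (orange). Models that span the coding sequence hold over 86% of the reads of Cdkn1c, Dlk1 and Mest, and under 8% for Igf2, Igf2r and Peg3. Where single reads begin and end is not shown.

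Members of similar level differed in the length of the models that their reads were put in. The lengths of the reads themselves are not known here. Mean model length was 24.4% and 24.0% of the reference for Igf2 but 94.9% and 91.2% for Mest, which had a similar CPM. It was 3.74% and 3.73% for Peg3, whose reference is 8694 bases long, and 92.7% for the 3 reads of Plagl1, whose reference is 5260 bases long. Dlk1 was above 100% because Dlk1-201, Dlk1-206 and Dlk1-208 are longer than the reference, Dlk1-205.

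The share of a gene's leading complete model was also compared between the libraries by Fisher's exact test, adjusted over the 2108 genes that had 20 or more complete reads in each. None of the 4 members tested (H19, Cdkn1c, Dlk1 and Mest) passed, with unadjusted p from 0.427 to 1.000 and adjusted p of 1.000, beside 0.996% of all genes. The shares of the leading models were 95.7% and 96.3%, 26.5% and 28.6%, 70.2% and 63.4%, and 98.8% and 98.0%, in that order of genes. H19 and Cdkn1c thus differed in level between the libraries, and a difference in their leading share was not detectable at this depth.

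Genes that act beside the members were described from lists chosen with earlier results of these data known. Of 22 genes of IGF and insulin signalling, 20 had a read, and 1 of the 13 tested was higher in replicate 1 and none in replicate 2, a share near the 6.89% and 6.56% of all genes. The binding protein gene Igfbp7 had 328 and 279 CPM, Akt1, a kinase downstream of the receptors, 180 and 131, its relative Akt2 138 and 79.8, and Igfbp5 106 and 81.4. Akt2 was the one called (adjusted p = 0.00666, Fisher's exact test). Igf1, the postnatal growth factor, had 15.5 and 12.8 CPM and its receptor gene Igf1r had 6.39 and 3.19, values named here after they were seen. Per kb of the longest transcript, Igf1 had 2.20 and 1.81 CPM and Igf2 had 23.0 and 21. Most Igf2 reads were on a 3′ model, and its mean on complete models was 10.5 CPM. Igf2 models that touch any coding base had 4 and 2 reads. The classes of the Igf1 reads are not given here, so these values do not rank the 2 messenger RNAs.

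**Figure D5:**
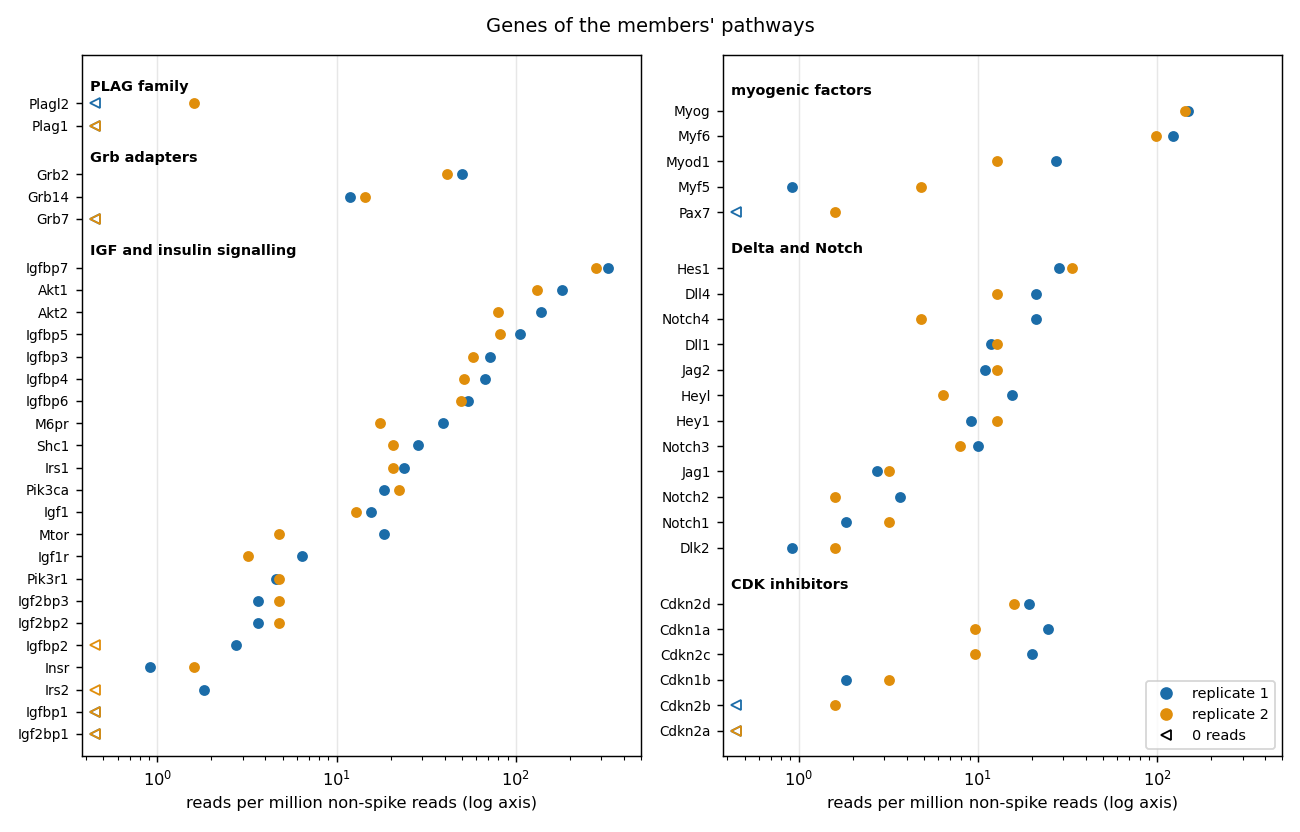
CPM (log axis) in replicate 1 (blue) and replicate 2 (orange) of the genes that act beside the members, grouped by list, with an open arrow for 0 reads. Myog and Igfbp7 are the highest of their lists, and Cdkn2a, Grb7 and Plag1 have 0 reads in both libraries.

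Among the other CDK inhibitors, Cdkn1a had 24.7 and 9.58 CPM, Cdkn2d 19.2 and 16.0, Cdkn2c 20.1 and 9.58, and Cdkn1b 1.83 and 3.19. Cdkn2b had 0 and 1.60 CPM and Cdkn2a 0 reads in both. None of the 3 tested passed in either direction, beside 13.5% of all genes, and 3 genes are too few to set against that share. The sum of the 6 genes, 65.8 and 39.9 CPM, was a small part of Cdkn1c's 997 and 650. Per kb of the longest transcript, Cdkn2d had the highest mean of the 6 at 13.5 and 11.2 CPM, beside 524 and 342 for Cdkn1c.

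Of the relatives of Grb10, the general adapter Grb2 had 50.2 and 41.5 CPM, Grb14 11.9 and 14.4, and Grb7 0 reads. Of the relatives of Plagl1, Plagl2 had 1 read in replicate 2 and Plag1 had 0 reads. Of the 12 genes of Delta and Notch signalling, all had a read. None of the 8 tested passed, beside 13.5% of all genes, and 8 genes are too few to set against that share. The 4 highest were the target gene Hes1 with 28.3 and 33.5 CPM, the ligand gene Dll4 with 21 and 12.8, the receptor gene Notch4 with 21 and 4.79, and the ligand gene Dll1 with 11.9 and 12.8. Among myogenic factors, Myog had 148 and 142 CPM and Myf6 122 and 99.0. Myod1 had 27.4 and 12.8 CPM, Myf5 0.914 and 4.79 and Pax7 0 and 1.60. None of the 3 myogenic factors tested passed, and the same limit of number holds.

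Outside the 10 members, 31 of 50 other genes listed as imprinted, in whatever tissue, had a read. Of the 18 tested, 3 were higher in replicate 1 and none in replicate 2, beside 6.89% and 6.56% of all genes. The 4 highest were Gnas with 1205 and 908 CPM, Cd81 with 474 and 442, Slc38a4 with 110 and 105 and Nap1l4 with 137 and 60.7. Of the 60 listed genes together, H19, Gnas and Cdkn1c had the highest mean CPM, in that order. Whether each listed gene is imprinted in gastrocnemius was not tested, so these are levels of the genes and not of imprinted expression.

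Neighbours of the members were named after their values were seen. Beside Dlk1 and Meg3, the noncoding RNA Rian had 11 and 13 reads and Mirg 5 and 1, while Rtl1 and Dio3 had 0. Of the genes in the chromosome 7 cluster of Cdkn1c, Cd81 and Nap1l4 were among the 4 given above, Tssc4 had 15 and 10 reads and Osbpl5 24 and 5. Kcnq1ot1, the noncoding RNA that silences the paternal copy, had 0 and 1 reads, Kcnq1 2 and 0, and Phlda2, Slc22a18 and Ascl2 had 0. Beside Peg3, Usp29 and Zim3 had 0 reads and Zim1 had 4 and 2. Beside Grb10, Cobl had 77 and 34 reads and Ddc 1 and 5.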

How the data were processed

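The authors deposited, for each library, a table of whole read counts per transcript model and an annotation of the same models. Per the file headers each row gives gene, model, exons, length and class, and per the deposited file descriptions counts come from a filtered alignment on mm10 with GENCODE M21. Aligner and software versions: not given in the sources used here. Counts were used as deposited. Reads on ERCC contigs (4.12% and 2.50%) were set aside, all models of a gene were summed, and CPM are per 1000000 remaining reads. Models were joined across files by their chain of introns. Starts within 100 bases of each other were 1 region.

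Fisher's exact test with Benjamini-Hochberg adjustment (threshold 0.05) was run over all genes with at least 10 reads, and on leading models with at least 20 complete reads per library. It was also run on simulated counts, which held set shifts and counting error alone. The real libraries differ more widely, so that run does not show how the test behaves on them. Intervals are exact (Clopper-Pearson or Poisson, 95%). The alternatives are TMM factors from edgeR 4.0.16 (1.07 and 0.938), other totals, other read minimums, other classes and each library alone. With annotated models alone, levels were set per reads on annotated models and not per all remaining reads. No likeness of patterns was computed, since 1 group of 2 libraries gives none. The members and lists were chosen with earlier results of these data known. All members and chains with at least 5% of complete reads or the 3 most read were to be named, as were all genes of short lists and the 4 highest of lists over 10 genes. Sequences are from GENCODE M21 transcripts and RefSeq tables, where 8 of the 10 members have a promoter. Tests used scipy 1.17.1 and tables pandas 2.3.3 (Python 3.11.15).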

Additional observations from a re-analysis of the deposited data

Results flagged for a closer look

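Reads on unannotated models of the strand opposite Grb10 numbered 20 in replicate 1 and 9 in replicate 2, above the limit of 3 reads and close to Grb10's own 20 and 7 reads. They lie outside the member's counts. The largest single model had 13 reads in replicate 1, from 11932007 to 11933094 on chromosome 11, and 5 reads in replicate 2, from 11932479 to 11933094, both of 1 exon inside the last exon of Grb10-201. All models had 1 exon. How the libraries keep strand is not given in the sources used here, and the origin of these reads was not tested.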

How the results depend on the processing

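The summed level of the members, 3078 CPM, ranged from 2684 to 3050 over the 6 other totals and class choices, each within the SD of the libraries. The annotated-only sum in that range, 3027, is per reads on annotated models (770685 and 434422), a smaller total. It therefore does not show how much of the summed level is lost without the other classes. With 1 library alone the summed level was 2545 to 3610 CPM. That range says nothing of stability, since either of 2 values lies within their SD of the mean. The count of members that differ between the libraries, 4, was 2 without the genomic class (Dlk1 at an adjusted p of 0.0548 and Meg3 at 0.0875, Fisher's exact test) and 3 or 4 otherwise. Under TMM totals Dlk1 (0.202) lost its call and Peg3 (0.0423) gained one, in an exact binomial test. The cause was not tested. Calls over all genes numbered 726 to 1085, against 1070, but their share ran from 6.12% of 14704 genes with at least 1 read to 33.2% of 3271 with at least 50, where 4 of 6 members were called, and calls of leading shares 14 to 22, against 21. Complete reads made up 86.7% of the members' reads, 83.7 to 89.7% with 1 library alone and 87.0% with models of at least 2 reads. The 65 start regions became 68 with a narrower join and 61 with a wider one. Of single members, 8 of 10 moved by more than their SD with annotated models alone, 6 with complete models alone, 3 without the genomic class and 2 with models of at least 2 reads. The annotated-only values are per reads on annotated models, so they are not on the scale of the complete-model values. That smaller total raises every level, and H19 (2347) and Mest (113) moved up under it. The mean of Igf2 was 1.30 on annotated models and 10.5 CPM on complete models, and that of Meg3 was 4.39 and 34.8. For Igf2r the means were 1.15 and 0.798, and for Grb10 3.60 and 2.97. Peg3 had 0 on both, and Cdkn1c had 435 on annotated models.

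No paired analysis was possible because there is 1 group. Depth limits Peg3, Plagl1, Grb10 and Igf2r, with 3 to 37 reads in all, and alleles, read ends and strand handling cannot be checked in these files.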
